A study of Mus musculus with 6 samples.

Results

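The Hox cluster genes were examined in 6 subcutaneous tumors grown from YUMM3.3 cells, of which 3 came from mice given rigosertib (RGS) and 3 from mice given vehicle. Members were the protein-coding rows whose symbol is Hoxa, Hoxb, Hoxc or Hoxd followed by a paralog number. This rule, which used no measured value, took 39 of the 40166 rows, with 38 different symbols because Hoxd4 has 2 rows. The tumors held a simple pattern. Hoxb2 to Hoxb9 and Hoxd8 to Hoxd10, 11 members in all, had more than 3 counts in all 6 tumors, and no Hoxa or Hoxc member did. Hoxd3 also had more than 3 counts in every RGS tumor, with 22, 5 and 14, but had 13, 3 and 1 with vehicle. Of the 14 Hox rows tested 14.3% were called, below the 32.8% of all genes tested. Within the set of 11, Hoxb3 was called lower and its neighbor Hoxb4 higher in the tumors given RGS. Each call was lost in several fits that left out a single tumor.

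YUMM3.3 is a mouse melanoma line with mutant Braf and deleted Cdkn2a, and all 6 tumors were grown from this single line under the skin of the lower back of C57BL/6 mice. RGS, a small molecule that mimics RAS and blocks its binding to effectors, was given by oral gavage at 300 mg/kg on 5 days of each week, and the vehicle was H2O. Tumors were collected on day 17 of treatment. Mice were 8 to 10 weeks old when tumors were established, per the study's methods, and the labels do not say that each tumor came from its own mouse, so p-values measure the spread between these tumors.

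Whole tumors were sequenced, and fewer cells of a type and less RNA per cell cannot be told apart in such data. Total counts were 22793087 to 32555494 in the vehicle tumors and 13837932 to 21617368 in the RGS tumors, so the ranges did not overlap, and depth and treatment cannot be told apart. The pigment-cell markers Mlana, Tyr and Dct, 3 of 7 listed, were at 0 in all 6 tumors, Mitf had 74 to 261 counts, and the summed level of the list was 4.94 to 7.67 CPM (counts per 1e6 counts of a library) with vehicle and 4.52 to 10.5 CPM with RGS. The pan-leukocyte gene Ptprc and the lymphocyte genes Cd3e, Cd8a and Ms4a1 were also at 0, that is 4 of the 8 leukocyte markers, although the summed level of that list was 245 to 313 CPM in the vehicle tumors and 1007 to 1095 CPM in the RGS tumors, mostly Laptm5. Among 8 fibroblast markers, Lum was at 0 in every tumor while Pdgfra had 1494 to 7497 counts, and the summed level was 404 to 601 CPM with vehicle and 294 to 320 CPM with RGS. Of that list 7 were tested, and 4 fell, 1 rose and 2 did not pass, beside 16.5% lower and 16.3% higher over all genes tested. Dcn rose from 1.14 ± 0.495 to 10.7 ± 4.61 CPM (edgeR adjusted p = 6.2e-05), and Col1a1 did not pass the test (adjusted p = 0.811). Of 5 endothelial markers, Emcn was at 0, 1 was over 3 counts in all 6 tumors and 3 were tested. Of these, 2 did not pass and Cdh5 rose from 0.555 ± 0.266 to 6.20 ± 3.78 CPM (edgeR adjusted p = 0.000637), beside 32.8% called over all genes tested. The summed level of the list was 0.945 to 1.2 CPM with vehicle and 3.24 to 11.2 CPM with RGS. The part of these shifts in the Hox results was not tested.

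Hox genes encode transcription factors that tell cells where they lie along the body axis. They sit in 4 clusters that arose by duplication, and genes of like position in different clusters, which share a paralog number, resemble each other most. Low numbers act toward the head and high numbers toward the tail and the distal limb, and adult cells, fibroblasts of the skin among them, often keep the Hox set of the place they came from. The proteins bind DNA through the homeodomain, whose recognition helix lies in the major groove, and they do so with TALE partners such as Meis proteins. Polycomb complexes hold the clusters silent, trithorax complexes keep them active, and retinoic acid opens them from the low-numbered end.

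The likeness of the members decides whether their reads can be told apart, so the 24 bases that encode the core of the recognition helix are shown here for the 11 members with more than 3 counts in every tumor. They come from the coding sequences of GENCODE M21 (GRCm38), run 5′ to 3′, and have capitals where a base differs from Hoxb4, the member that was higher with RGS.
Hoxb2: tggttccagaaCcgAcgcatgaaA
Hoxb3: tggttccagaaCcgTcgcatgaag
Hoxb4: tggttccagaatcggcgcatgaag
Hoxb5: tggttccagaaCcgTcgcatgaag
Hoxb6: tggttTcagaaCcggcgcatgaag
Hoxb7: tggttTcagaaCcggcgcatgaag
Hoxb8: tggttccagaatcggAgAatgaag
Hoxb9: tggttTcagaaCcggcgGatgaaA
Hoxd8: tggttccagaaCAggAgAatgaaA
Hoxd9: tggttccagaaCcgTAgGatgaaA
Hoxd10: tggttTcaAaaCcgCcgAatgaaA
These stretches lie on the plus strand within single exons at Hoxb2 chr11:96353126-96353149, Hoxb3 chr11:96345809-96345832, Hoxb4 chr11:96320197-96320220, Hoxb5 chr11:96305048-96305071, Hoxb6 chr11:96300830-96300853, Hoxb7 chr11:96289526-96289549, Hoxb8 chr11:96284315-96284338, Hoxb9 chr11:96274800-96274823, Hoxd8 chr2:74706666-74706689, Hoxd9 chr2:74699356-74699379, Hoxd10 chr2:74694282-74694305. They fell into 9 different sequences, since Hoxb3 and Hoxb5 were identical here, as were Hoxb6 and Hoxb7. Over the whole homeobox of 180 bases, the 55 pairs of these members shared 55.6% to 88.9% of bases, with a median of 65.6%. Hoxb6 and Hoxb7 were the closest pair at 88.9%, followed by the paralogs Hoxb9 and Hoxd9 at 84.4%, and Hoxb8 and Hoxd8 shared 80.6%. The longest run of identical bases in the coding sequences of any pair was 40 bases, between Hoxb9 and Hoxd9, which is shorter than the reads the study used.

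By cluster and paralog number, the set of genes with counts was narrow. Hoxb, on chromosome 11 from 96194316 to 96368256 (GRCm38), had 8 of its 10 members over 3 counts in every tumor, and the other members, Hoxb1 and Hoxb13 at its ends, had no count in any tumor. Hoxd, on chromosome 2 from 74668310 to 74765142, had 3 of its 9 rows over 3 counts in every tumor, namely Hoxd8, Hoxd9 and Hoxd10. Hoxa, on chromosome 6 from 52155590 to 52260880, and Hoxc, on chromosome 15 from 102921103 to 103036852, had 0 of 11 and 0 of 9. In terms of paralog number, the set spanned 2 to 10, with groups 8 and 9 held by a pair of members each and groups 1, 11, 12 and 13 by none. Hoxd12 was not analysed here. For comparison, 11068 of the 20157 protein-coding rows, 54.9%, were over 3 counts in all 6 tumors, against 28.2% of the Hox rows.

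**Figure D1:**
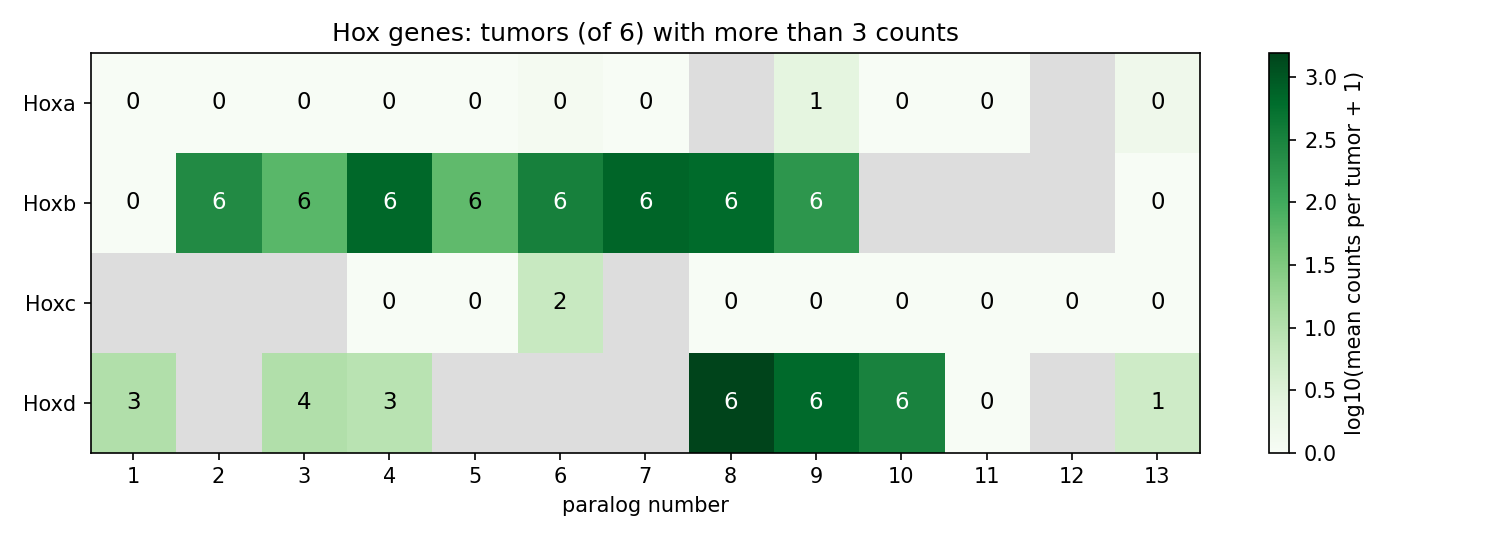
Each square is a Hox gene, by cluster (rows) and paralog number (columns), shaded by the log10 of its mean counts per tumor plus 1, and the figure printed in it is how many of the 6 tumors had more than 3 counts. Gray marks positions with no row, and for Hoxd4 the row with more counts is drawn. The squares marked 6 form a block from Hoxb2 to Hoxb9 and a second block from Hoxd8 to Hoxd10.

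Outside the 11 members, 19 rows had no count in any tumor, 2 more (Hoxa6 and Hoxa13) never exceeded 3 counts, and 7 exceeded 3 counts in some tumors. A count of 0 allows up to 3 counts, which is 0.0856 to 0.226 CPM depending on the library and covers counting error only. Since marker genes of pigment cells and leukocytes were also at 0 in these tumors, a Hox gene at 0 is described here as listed at 0 and not as unexpressed. Hoxd3 came closest to the set, with 13, 3 and 1 counts in vehicle tumors 7, 8 and 9 and 22, 5 and 14 in RGS tumors 10, 11 and 12. The larger Hoxd4 row had 12, 8 and 0 counts with vehicle and 26, 0 and 0 with RGS, and Hoxd1 had 4, 18 and 0 with vehicle and 35, 1 and 1 with RGS. All 3 of these low-numbered Hoxd rows had their highest count in the same tumor, RGS tumor 10, while the smaller Hoxd4 row had its highest, 5 counts, in RGS tumor 12. The larger Hoxd4 row lies within the span of Hoxd3, and the exon bases they share were not examined. Hoxc6, a gene of the thoracic region, had 13, 1 and 15 counts with vehicle and 0, 1 and 0 with RGS. The digit gene Hoxd13 exceeded 3 counts in vehicle tumor 9 alone, with 19 counts, and Hoxa9 in the same tumor alone, with 9 counts. These scattered counts overlapped between the groups, except for Hoxd3, whose scaled levels were 0.0430 to 0.371 CPM with vehicle and 0.376 to 1.04 CPM with RGS.

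Levels of the 11 members were compared as CPM per kilobase of gene length, scaled between libraries by the trimmed mean of M-values (TMM). Hoxd8 was the most abundant, at 24.9 ± 0.964 with vehicle and 24.7 ± 4.36 with RGS (CPM per kilobase, SD, n = 3 each), and Hoxb7, a gene long studied in melanoma, followed at 22.6 ± 2.21 and 18.2 ± 2.72. Averaged over the 6 tumors, Hoxd8 stood above 86.4% of the protein-coding genes with a count and Hoxb7 above 83.6%. With vehicle the order went on with Hoxd9, Hoxb4, Hoxd10, Hoxb8 and Hoxb6, from 12.5 ± 2.07 down to 8.52 ± 2.13, and the ranges of neighbors in that stretch overlapped. Hoxb2 at 3.80 ± 0.496 and Hoxb9 at 3.17 ± 1.13 overlapped each other and lay below it. Hoxb3 at 0.908 ± 0.219 and Hoxb5 at 0.665 ± 0.425 were the least abundant, above only 30.2% and 34% of the protein-coding genes with a count when averaged over all tumors. Hoxb4, the chromosomal neighbor of both, stood at 10.2 ± 1.05, so the order along the cluster was not the order of abundance.

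**Figure D2:**
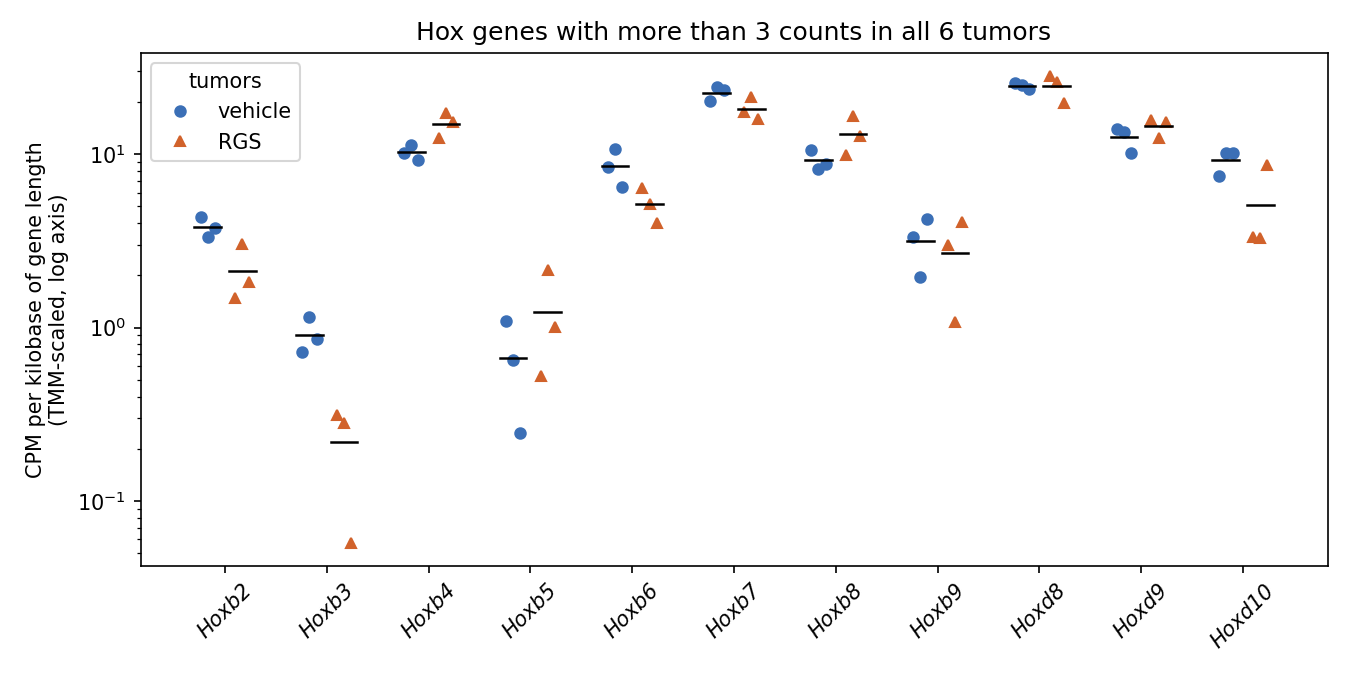
Levels of the 11 members in each tumor as TMM-scaled CPM per kilobase of gene length on a log axis, with circles for vehicle, triangles for RGS and bars for group means. Hoxd8 and Hoxb7 are the highest, Hoxb3 and Hoxb5 the lowest, and the groups lie apart for Hoxb2, Hoxb3, Hoxb4 and Hoxb6.

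As CpG-rich start sites are common in developmental genes, the 250 bases before the start were compared, using RefSeq promoters (GRCm38.p6). The comparison was between members over 3 counts in all 6 tumors and the other members. Of the 38 symbols, 21 had an entry, 5 of them in the set of 11 (Hoxb4, Hoxb8, Hoxd8, Hoxd9 and Hoxd10). The dinucleotide CG occurred a median of 13 times in these 5 windows, 12.5 times in the 18 windows of the other members, and 6 times in all 32851 windows of the table. Counting CG therefore did not separate these 5 members from the others, which include rows over 3 counts in some tumors. The rest of the set of 11 had no window and was not compared. The most abundant member had few CG and a member with at most 3 counts had many. Both windows are shown with each CG in capitals, Hoxd8 at chr2:74704365-74704614 on the plus strand and Hoxa13 at chr6:52260881-52261130 on the minus strand.
Hoxd8: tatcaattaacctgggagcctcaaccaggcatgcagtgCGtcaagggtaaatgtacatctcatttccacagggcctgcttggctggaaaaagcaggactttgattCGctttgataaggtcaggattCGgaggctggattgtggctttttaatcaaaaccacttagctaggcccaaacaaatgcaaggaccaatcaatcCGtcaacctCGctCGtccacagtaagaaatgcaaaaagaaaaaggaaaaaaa
Hoxa13: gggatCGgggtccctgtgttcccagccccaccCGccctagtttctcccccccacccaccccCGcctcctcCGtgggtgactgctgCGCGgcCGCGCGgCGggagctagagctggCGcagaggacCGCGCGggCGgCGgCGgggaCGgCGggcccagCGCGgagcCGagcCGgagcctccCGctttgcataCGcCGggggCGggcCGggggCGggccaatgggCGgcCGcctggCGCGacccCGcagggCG
Hoxd8 held 6 CG, more than 49.6% of all windows, and Hoxa13 held 35, more than 97% of them. The letters CCAAT, searched on both strands, were present in 3 of the 5 windows, in 10 of the 18 and in 33.8% of all windows. TATAAA was present in 1 of 5, 3 of 18 and 12.4%. TGATNNAT, letters bound by Hox proteins with a partner, was present in 1 of 5 (Hoxb8), 3 of 18 and 7.68%. These matches describe the windows and are not binding sites.

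The comparison of RGS with vehicle asked how RNA levels in whole tumors differed between the groups. With edgeR's quasi-likelihood test, 14 Hox rows reached the minimum, a median of 5 counts in vehicle or RGS tumors, and were tested, the 11 members above with Hoxc6, Hoxd3 and the larger Hoxd4 row. At a Benjamini-Hochberg adjusted p under 0.05, 2 of the 14 differed, 1 lower and 1 higher, which is 14.3%. Of all 15355 genes tested, 32.8% differed, 16.5% being lower and 16.3% higher, so the share of Hox genes called was below the background. The tumors of the groups did not overlap for 5 of the 14 (Hoxb2, Hoxb3, Hoxb4, Hoxb6 and Hoxd3), or 35.7%, against 45.8% of all genes tested. The median log2 fold change was -0.11 over the 14 Hox rows and -0.05 over all genes tested. Without TMM scaling the latter was -0.19, and the higher genes made up 37.2% of the called genes in place of 49.7%.

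**Figure D3:**
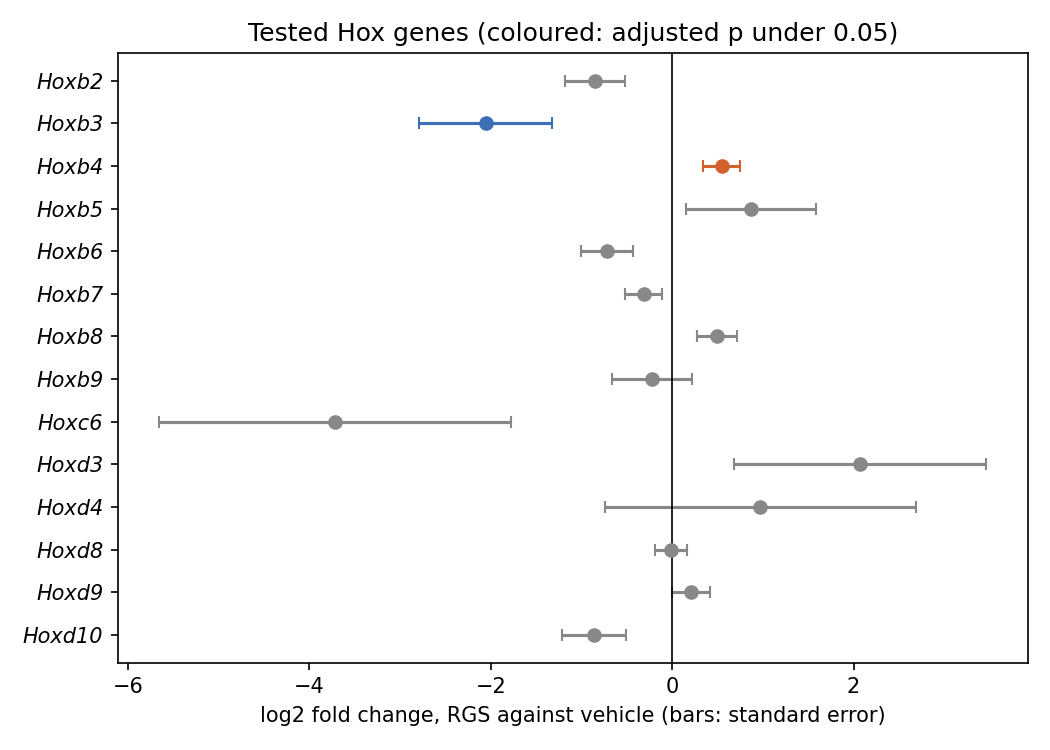
Log2 fold change of the 14 tested Hox rows, RGS against vehicle, with bars for the standard error and n = 3 tumors per group. Hoxb3 (blue, lower) and Hoxb4 (orange, higher) passed an adjusted p of 0.05, and the gray points did not.

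Hoxb3, a gene of the hindbrain and neck region, was the member that was lower. It had 107, 137 and 85 counts in vehicle tumors 7, 8 and 9 and 28, 16 and 4 in RGS tumors 10, 11 and 12. The groups did not overlap after scaling either, at 0.245 to 1.32 CPM against 3.05 to 4.88 CPM, and RGS tumor 12 was the lowest. The log2 fold change was -2.05 (SE 0.73, edgeR adjusted p = 0.0382). The gene (chr11:96323326-96347930, plus strand) shares 2250 of its 4251 exon bases, 52.9%, with the antisense transcript Hoxb3os, and since the strand setting of the counting is not given in the sources used here, reads from these bases cannot be told apart. Hoxb3os had 50, 83 and 40 counts with vehicle and 17, 13 and 43 with RGS, which overlapped and did not pass the test (log2 fold change -0.47, SE 0.82, edgeR adjusted p = 0.705). The call for Hoxb3 was lost without vehicle tumor 7 (edgeR adjusted p = 0.0565), vehicle tumor 8 (0.201), vehicle tumor 9 (0.0714) or RGS tumor 12 (0.0647), while the log2 fold change stayed between -2.44 and -1.63.

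Hoxb4, known for expanding blood stem cells when it is forced on, was the member that was higher. Its counts were 909, 817 and 552 with vehicle and 669, 585 and 645 with RGS, from libraries of unequal depth. Scaled for depth these were 25.9, 29.1 and 23.7 CPM with vehicle and 31.7, 44.0 and 39.4 CPM with RGS, so all 3 RGS tumors lay above all 3 vehicle tumors, by a small margin for RGS tumor 10. The log2 fold change was 0.55 (SE 0.20, edgeR adjusted p = 0.0457), or 1.46-fold. Among the rows matched to GENCODE M21, none has an exon that overlaps Hoxb4 (chr11:96318267-96321638, plus strand). The call was lost without TMM scaling, where the log2 fold change was 0.40 (edgeR adjusted p = 0.149), and with no count filter (adjusted p = 0.0548). It was also lost without vehicle tumor 7 (0.0617), vehicle tumor 8 (0.0734), vehicle tumor 9 (0.149), RGS tumor 11 (0.186) or RGS tumor 12 (0.114).

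The other members at the low-numbered end of Hoxb did not pass the test. Hoxb2, which patterns the hindbrain, had 528, 326 and 305 counts with vehicle and 109, 141 and 105 with RGS, and its scaled levels of 11.6 to 15.1 CPM and 5.16 to 10.6 CPM did not overlap. Its log2 fold change was -0.85 (SE 0.33, edgeR adjusted p = 0.0560), just outside the threshold, and it was called with DESeq2, the test the study's methods name (adjusted p = 0.0499), and with edgeR without TMM scaling (adjusted p = 0.0282). Leaving out RGS tumor 11, the highest of its group, gave -1.21 (adjusted p = 0.0106). Hoxb2 shares 27.3% of its exon bases with Hoxb3os, in antisense. Hoxb5 had 107, 51 and 16 counts with vehicle and 31, 79 and 46 with RGS, a spread that overlapped widely (log2 fold change 0.86, SE 0.72, edgeR adjusted p = 0.384).

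Members of the trunk-level groups 6 to 9 of Hoxb varied in sign. Hoxb6 had 578, 591 and 295 counts with vehicle and 264, 134 and 129 with RGS, and its scaled levels of 12.7 to 21.1 CPM lay just above those of 7.89 to 12.5 CPM with RGS. Its log2 fold change was -0.72 (SE 0.29, edgeR adjusted p = 0.0635). It passed the test without vehicle tumor 9 (-0.88, adjusted p = 0.0367) or without RGS tumor 10 (-0.90, adjusted p = 0.0456). Of 8 alternative fits on all 6 tumors, 2 called Hoxb6. These were limma voom with quality weights (adjusted p = 0.0121) and edgeR without TMM scaling (0.0329). Hoxb7 had 1093, 1061 and 836 counts with vehicle and 574, 435 and 401 with RGS. Scaled, its groups touched, at 31.2 to 37.8 CPM and 24.5 to 32.8 CPM, with a log2 fold change of -0.31 (SE 0.20, edgeR adjusted p = 0.249). Hoxb8, which keeps myeloid progenitors immature when forced on, had 980, 604 and 541 counts with vehicle and 547, 578 and 546 with RGS, or 21.5 to 28.0 CPM against 25.9 to 43.5 CPM. The groups overlapped through vehicle tumor 7 and RGS tumor 10 (log2 fold change 0.50, SE 0.22, edgeR adjusted p = 0.0978), and without RGS tumor 10 the adjusted p was 0.0415. Of 8 alternative fits on all 6 tumors, 1 called Hoxb8, limma voom with quality weights (adjusted p = 0.0123). Hoxb9 varied within both groups, with 300, 142 and 252 counts against 163, 37 and 170 (log2 fold change -0.22, SE 0.44, edgeR adjusted p = 0.743).

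None of the Hoxd members passed the test. Hoxd8 had 2479, 1920 and 1523 counts with vehicle and 1629, 955 and 887 with RGS, which became 65.5 to 70.7 CPM and 54.2 to 77.1 CPM after scaling, so the RGS tumors spanned the whole vehicle range. Its log2 fold change was -0.01, with a 95% interval from the standard error of -0.35 to 0.33 (edgeR adjusted p = 0.974). Hoxd9 had 1050, 800 and 504 counts against 706, 350 and 538, and its log2 fold change was 0.21 with an interval of -0.20 to 0.62 (edgeR adjusted p = 0.482). Hoxd10, which acts in the lumbar spinal cord and the limb, had 475, 517 and 431 counts with vehicle and 127, 79 and 258 with RGS. RGS tumors 10 and 11 were far below the vehicle tumors, at 6.01 and 5.95 CPM against 13.6 to 18.5 CPM, while RGS tumor 12 lay within them at 15.8 CPM. The log2 fold change was -0.86 (SE 0.35, edgeR adjusted p = 0.0654), and without RGS tumor 12 it was -1.51 (adjusted p = 0.00168), or -0.996 without vehicle tumor 7 (adjusted p = 0.0416). Of 8 alternative fits on all 6 tumors, 3 called Hoxd10. These were limma voom with quality weights (adjusted p = 0.00428), edgeR without TMM scaling (0.0283) and edgeR with no count filter (0.0254). Of the low-count rows, Hoxc6 gave -3.72 (SE 1.94), Hoxd3 gave 2.07 (SE 1.39) and Hoxd4 gave 0.97 (SE 1.71) on the log2 scale, with edgeR adjusted p-values of 0.151, 0.272 and 0.707. Of the exon bases of Hoxd3, 53.1% are shared with Gm28230, a protein-coding row on the same strand.

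Summed over a whole cluster, the levels were close. The Hoxb members together reached 131, 133 and 124 CPM in the vehicle tumors and 113, 151 and 125 CPM in the RGS tumors, means of 129.3 ± 4.80 and 129.6 ± 19.5 (SD, n = 3 each). The Hoxd members reached 115, 116 and 106 CPM with vehicle and 120.4, 105 and 104 CPM with RGS, means of 112.7 ± 5.39 and 109.8 ± 9.19. The difference between the means was smaller than the spread in either cluster, at 0.309 CPM for Hoxb and -2.86 CPM for Hoxd. Without TMM scaling the differences were -12.4 CPM and -13.7 CPM. Hoxb supplied 53.7% and Hoxd 46.2% of all Hox counts after scaling, while Hoxa reached at most 0.387 CPM and Hoxc at most 0.645 CPM, both in vehicle tumor 9.

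**Figure D4:**
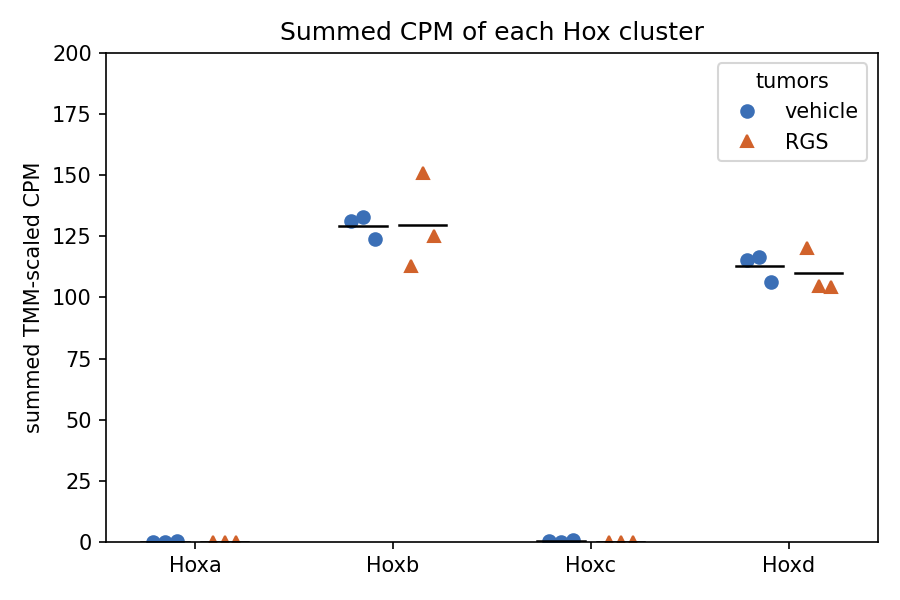
Summed TMM-scaled CPM of each cluster's members in each tumor, with circles for vehicle, triangles for RGS and bars for group means. Hoxb lies at 113 to 151 CPM and Hoxd at 104 to 120.4 CPM in both groups, and Hoxa and Hoxc lie near 0.

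Of the 7 ratios of another Hoxb member to Hoxb4, 4 did not overlap between the groups, while the levels of 45.8% of all genes tested did not overlap. A ratio of counts within a tumor needs no scaling, and Hoxb4 was taken as the denominator after the values were seen, so the ratios carry no test and share that gene. Hoxb4 itself was higher in all RGS tumors, which lowers every ratio, so the count is not a result about the other members. The ratio of Hoxb3 to Hoxb4 was 0.118, 0.168 and 0.154 in the vehicle tumors and 0.0419, 0.0274 and 0.00620 in the RGS tumors. The ratio of Hoxb2 to Hoxb4 was 0.399 to 0.581 with vehicle and 0.163 to 0.241 with RGS. Those of Hoxb6 to Hoxb4, at 0.534 to 0.723 against 0.2 to 0.395, and of Hoxb7 to Hoxb4, at 1.2 to 1.51 against 0.622 to 0.858, did not overlap either. The groups overlapped for Hoxb5, at 0.0290 to 0.118 against 0.0463 to 0.135, for Hoxb8, at 0.739 to 1.08 against 0.818 to 0.988, and for Hoxb9, at 0.174 to 0.457 against 0.0632 to 0.264. In Hoxd, the ratio of Hoxd8 to Hoxd9 overlapped, at 2.36 to 3.02 against 1.65 to 2.73, as did that of Hoxd10 to Hoxd9. As a share of all Hox counts per length, Hoxb4 made up 9.49%, 10.2% and 9.09% in the vehicle tumors and 12.3%, 15.8% and 15.5% in the RGS tumors, the largest gain in percentage points, while Hoxb5 gained more in proportion, from a mean of 0.620% to 1.17%, Hoxb7 went from a mean of 21.3% to 17.7% and Hoxd8 from 23.4% to 24.03%.

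**Figure D5:**
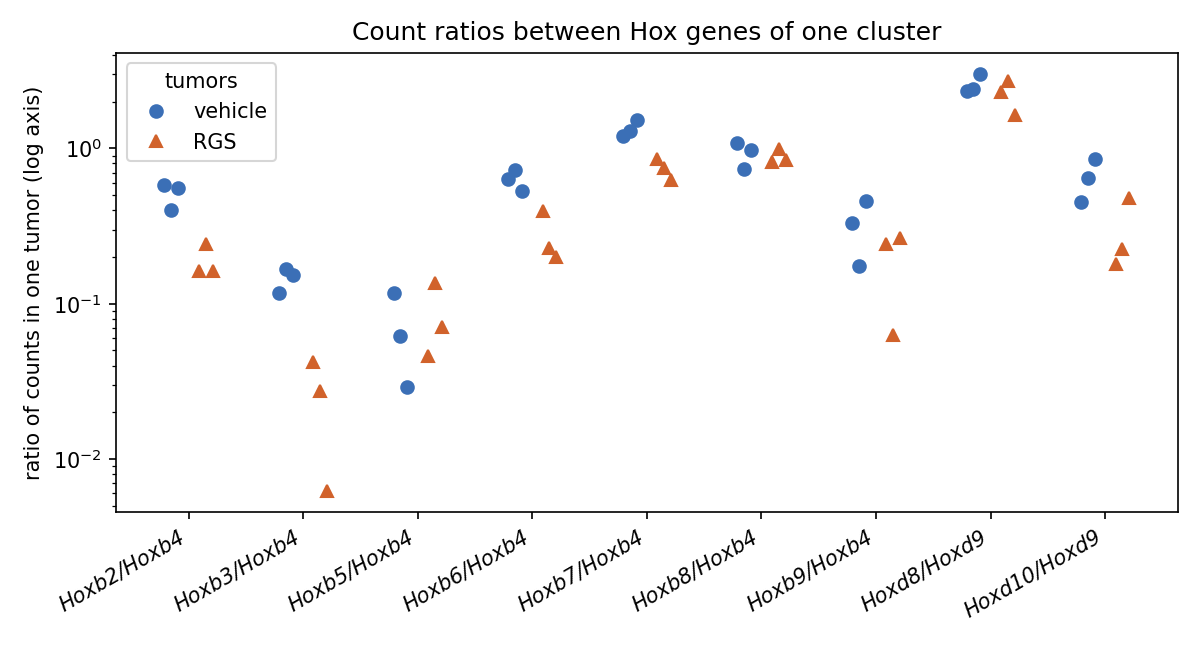
Ratios of counts between members of a cluster within each tumor on a log axis, with circles for vehicle and triangles for RGS. The ratios of Hoxb2, Hoxb3, Hoxb6 and Hoxb7 to Hoxb4 lie lower with RGS and do not overlap the vehicle tumors, and the other 5 ratios overlap.

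Noncoding rows that lie within the clusters followed the same division. Of 29 such rows, 17 had no count in any tumor, among them Hotair of Hoxc and Hotairm1 of Hoxa, and 4 were over 3 counts in all 6 tumors, 1 in Hoxb and 3 in Hoxd. Hoxb3os was that of Hoxb. In Hoxd, the antisense Hoxd3os1 had 76, 55 and 97 counts with vehicle and 67, 70 and 54 with RGS (log2 fold change 0.50, SE 0.56, edgeR adjusted p = 0.533), and Gm14424 had 7 to 14 counts in every tumor. Haglr, a long noncoding RNA transcribed away from the Hoxd1 promoter, was the only one of the 6 noncoding rows tested that passed, beside 32.8% of all genes tested. It had 114, 48 and 68 counts with vehicle and 70, 76 and 266 with RGS, so that its scaled levels of 1.71 to 3.25 CPM and 3.31 to 16.3 CPM were set apart mostly by RGS tumor 12. Its log2 fold change of 1.68 (SE 0.54, edgeR adjusted p = 0.0214) became 0.75 without that tumor (adjusted p = 0.334) and 1.47 without vehicle tumor 8 (adjusted p = 0.0628). The microRNA rows in the clusters had at most 1 count, in Mir10b, but libraries of this kind do not measure mature microRNAs.

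The nearest protein-coding rows outside the clusters were read for how sharply the counts ended. Beside Hoxb, Ttll6 had 10 counts in vehicle tumor 9 and at most 1 elsewhere, and Skap1 had 0 to 14. Beside Hoxd, the homeobox gene Evx2, which lies 8753 bases from the end of Hoxd13, had no count in any tumor, and at the other end Mtx2 measured 91.1 ± 20.96 CPM in the vehicle group and 93.3 ± 3.75 CPM in the RGS group (SD, n = 3 each). The clusters without steady counts lay between more distant rows with counts. Skap2 and Hibadh, 143041 and 285348 bases from Hoxa, were over 3 counts in all tumors. So were Calcoco1 and Smug1, 198925 and 116438 bases from Hoxc. No row was found for Evx1, so Hibadh is the nearest row on its side and not necessarily the nearest gene. Of the 8 flanking genes, Ttll6 and Evx2 were not tested. Among the rest Calcoco1 alone was called, higher with RGS (log2 fold change 0.53, SE 0.15, edgeR adjusted p = 0.0110), beside 32.8% of all genes tested. That call was lost without TMM scaling (adjusted p = 0.0692), without vehicle tumor 8 (0.0546) or without RGS tumor 11 (0.0674).

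The partners and regulators of Hox genes were counted on lists that had been chosen with earlier results of these data known. Among the TALE cofactors, DNA-binding partners of Hox proteins, Meis2 fell from 43.0 ± 5.36 to 23.8 ± 3.6 CPM (log2 fold change -0.85, SE 0.20, edgeR adjusted p = 0.00306), and this call held with each tumor left out.

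Polycomb genes, the silencers of Hox clusters, were all tested, and 8 of 23 fell, 4 rose and 11 did not pass, with a median log2 fold change of -0.25, against 32.8% called, 16.5% lower and 16.3% higher, and a median of -0.05 over all genes tested. Those that rose were Jarid2, Pcgf2, Cbx6 and Phc2. Those that fell included Ezh2, the methyltransferase of Polycomb repressive complex 2, Suz12, its partner, and Bmi1 and Rnf2 of complex 1. The 4 with the smallest p were Cbx7, a reader of the Polycomb mark (-1.48, SE 0.22), Phc2 (0.94, SE 0.15), Jarid2, which helps to recruit complex 2 (1.39, SE 0.23), and the histone-binding Rbbp4 (-0.93, SE 0.18), with edgeR adjusted p-values of 4.3e-05, 0.00011, 0.000152 and 0.000515. Rnf2 was not called without vehicle tumor 8 (log2 fold change -0.53, edgeR adjusted p = 0.0884). Any link between these changes and the levels of the Hox clusters was not tested.

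Trithorax genes and H3K27 demethylases were called in 2 of 10 cases, against 32.8% of all genes tested. The demethylase Kdm6b rose (log2 fold change 0.74, SE 0.17, edgeR adjusted p = 0.00275), and Dpy30, a shared subunit of H3K4 methyltransferases, fell (-1.02, SE 0.28, edgeR adjusted p = 0.00922). The call for Dpy30 was lost without vehicle tumor 9 (-0.62, adjusted p = 0.104) or RGS tumor 10 (-0.85, adjusted p = 0.0692). The median log2 fold change of the list was -0.01.

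In the retinoic acid pathway, 12 of 18 genes were tested, of which 4 rose, 3 fell and 5 did not pass, with a median log2 fold change of 0.17, beside 32.8% called among all genes tested. Aldh1a3, which makes retinoic acid, rose from 5.65 ± 0.481 to 51.5 ± 3.37 CPM (log2 fold change 3.19, SE 0.22, edgeR adjusted p = 3.3e-09). Dhrs3, which reduces retinal, rose from 0.866 ± 0.364 to 9.19 ± 1.79 CPM (3.41, SE 0.51, edgeR adjusted p = 4.4e-05). A second enzyme that makes retinoic acid, Aldh1a1, moved the opposite way, from 47.8 ± 4.21 to 20.2 ± 2.87 CPM (-1.25, SE 0.20, edgeR adjusted p = 9.97e-05), and the receptor Rxra rose (0.95, SE 0.21, edgeR adjusted p = 0.00177). The receptor Rara rose (0.64), and the retinol dehydrogenase Rdh10 (-0.92) and the binding protein Crabp1 (-0.59) fell (edgeR adjusted p = 0.00958, 0.0145 and 0.0137). Rara was not called without RGS tumor 11 (edgeR adjusted p = 0.0711), nor Rdh10 without vehicle tumor 8 (0.102). Crabp1 was not called without vehicle tumor 8 (edgeR adjusted p = 0.0513), RGS tumor 10 (0.0985) or RGS tumor 11 (0.0560). These 3 calls held with each of the other tumors left out. The receptor Rxrg and the transporter Stra6 were at 0 in every tumor.

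Other genes of body position gave little. The Cdx and Evx homeobox genes, which act upstream of or beside the Hox clusters, had 0 of 4 genes tested, and Evx1 had no row. Cdx1, Cdx4 and Evx2 were at 0 in every tumor, with a summed level of the list of at most 0.344 CPM. Of 15 other homeobox and T-box genes of position, 10 were tested and 1 passed, against 32.8% of all genes tested. That gene was Alx1, of the face and neural crest, which went from 4.27 ± 0.236 CPM in the vehicle tumors to 0.929 ± 0.759 CPM in the RGS tumors (log2 fold change -2.17, SE 0.76, edgeR adjusted p = 0.0353). Its adjusted p was 0.0869, 0.0941, 0.0545 and 0.0578 without vehicle tumors 7, 8 and 9 and RGS tumor 10, in that order. The limb genes Tbx4 and Tbx5 were at 0 in every tumor.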

How the data were processed

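RNA from 6 YUMM3.3 tumors was sequenced as paired-end reads. The deposited values are raw gene counts, which the authors made with cutadapt 1.18, STAR 2.7.1a and featureCounts 1.6.4 on build mm10, per the submitters' processing notes; the strand setting and the handling of multi-mapping reads are not given in the sources used here. All 6 columns were matched to samples by title. Genes whose median reached 5 counts in either group were tested with edgeR 4.0.16 (quasi-likelihood, TMM, all 6 tumors, no covariate), with Benjamini-Hochberg adjustment over all 15355 genes. The study's methods name DESeq2, which was run as an alternative (version 1.42.0), as was limma 3.58.1. Fits were tested on simulated data. The members and gene lists were chosen with earlier results of these data known. Described in full were members over 3 counts in every tumor or called, then noncoding rows within the clusters, flanking genes, and up to 4 called genes per list by p; further list genes were named for their function, after their values were seen. Exons and coding sequences were taken from GENCODE M21, in which 38927 of 40166 identifiers were found, all with the same coordinates; the Hoxd4 rows were not, so their exon overlaps were not examined. Unless said otherwise, levels are TMM-scaled CPM. Each SE was derived from the edgeR test, as the absolute log2 fold change over the square root of its F statistic. Intervals from the SE assume a normal distribution and are approximate. Of the TALE list, 1 result is not reported here.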

Additional observations from a re-analysis of the deposited data

How the results depend on the processing

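The members over 3 counts in all 6 tumors numbered 10 (over 10 counts), 12 (over 0 counts) or 11 (scaled to the smallest total, or with any tumor left out), beside 11 as reported. The Hox genes called moved more. Lower calls, 1 as reported, were 2 with DESeq2, 3 with limma voom and quality weights, 4 with library size only, 2 with no filter, and 0 to 2 with a tumor left out. Higher calls, 1 as reported, were 2 with limma voom, 0 with library size only, 0 with no filter, 0 where a change of 1 or more on the log2 scale was also required, and 0 to 2 with a tumor left out. Over 191 refits of single members, 166 kept the side of the threshold, 11 lost a call, 14 gained one and 0 reversed a call; the cause was not tested. Hoxb3 had adjusted p-values of 0.00906 to 0.201 and Hoxb4 of 0.0304 to 0.186 over 14 alternatives each. With that added requirement, 1450 genes were lower and 1168 higher over all genes tested, and 5 and 4 on the pathway lists. With library size only, the Hoxd sum differed by -13.7 CPM. The lower counts of the RGS libraries limit what can be said of members near 3 counts. No paired analysis was possible because the groups share no replicate number.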
